A study of Mus musculus with 16 samples.

Results

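Krüppel-like factors (KLFs) were followed through the first hours of efferocytosis, the uptake of dying cells by a phagocyte. The members were 10 genes taken by symbol from the count table, Klf2, Klf3, Klf4, Klf6, Klf7, Klf9, Klf10, Klf11, Klf13 and Klf16, out of 55416 gene IDs in the table and 14168 genes that passed the filter on low counts. All 10 passed that filter. The cells were mouse macrophages of the Hoxb8 line, grown out of bone marrow progenitors that a conditional Hoxb8 protein keeps immature and dividing, and all groups shared this origin. The groups were macrophages alone and macrophages given apoptotic cells for 45, 90 or 180 min, with 4 libraries each and 16 in all. The apoptotic cells were Jurkat cells, which are human and derive from a T cell leukaemia. The labels give no harvest time for macrophages alone, so exposure and time in culture cannot be told apart in comparisons with that group. The labels do not say whether replicate libraries come from separate cultures, so the p-values measure the spread between these libraries, which may be technical.

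KLFs are transcription factors that end in a run of zinc fingers and bind GC-rich DNA, chiefly CACCC boxes and GC boxes, through which they share sites with one another and with the Sp factors. The family is commonly divided by partner proteins. KLF2, KLF4, KLF6 and KLF7 belong to a group that mainly activates genes through acetyltransferases, KLF3 recruits the CtBP corepressors, and KLF9, KLF10, KLF11, KLF13 and KLF16 bind the Sin3a repressor complex. In cells of the myeloid lineage KLF2 is known as a brake on inflammatory gene expression, KLF4 as a factor of monocyte differentiation and alternative activation, and KLF6 as a promoter of inflammatory gene expression.

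Promoters of 8 of the 10 members, leaving Klf10 and Klf16, were matched by symbol to RefSeq sequences on GRCm38.p6. The stretch of 250 bases before the start is shown for Klf2, which had the widest range of the family, for Klf4, its close relative, and for Klf7, an activator that was highest at 90 min. Capitals mark the GC box GGGCGG, the cyclic AMP element core TGACG and a MEF2 site, on either strand.
Klf2, chr8:72318812-72319061, forward strand: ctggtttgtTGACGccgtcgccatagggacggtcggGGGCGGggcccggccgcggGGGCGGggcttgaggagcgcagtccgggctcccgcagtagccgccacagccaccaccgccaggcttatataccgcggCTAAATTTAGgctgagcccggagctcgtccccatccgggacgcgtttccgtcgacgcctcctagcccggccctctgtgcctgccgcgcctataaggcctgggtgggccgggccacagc
Klf4, chr4:55532476-55532725, reverse strand: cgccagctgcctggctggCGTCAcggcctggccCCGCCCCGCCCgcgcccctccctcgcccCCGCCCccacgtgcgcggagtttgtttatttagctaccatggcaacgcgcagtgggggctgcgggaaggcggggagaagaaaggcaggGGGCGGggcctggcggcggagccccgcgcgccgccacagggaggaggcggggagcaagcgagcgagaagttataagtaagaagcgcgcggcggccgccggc
Klf7, chr1:64121390-64121639, reverse strand: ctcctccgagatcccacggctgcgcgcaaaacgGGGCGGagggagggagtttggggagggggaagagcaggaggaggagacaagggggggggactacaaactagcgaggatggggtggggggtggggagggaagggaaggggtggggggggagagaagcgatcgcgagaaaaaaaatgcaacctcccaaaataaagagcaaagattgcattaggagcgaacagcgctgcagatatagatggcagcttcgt
The Klf2 promoter held a match to the MEF2 site from 118 to 109 bases before the start, the only one among the 8 promoters, and 2.92% of 32851 mouse promoters of this length and 184 of the 12261 promoters of tested genes held such a match. A GC box lay in 7 of the 8 members' promoters, all but that of Klf9, against 32.7% of all promoters and 56.2% of those of tested genes. The core TGACG lay in the promoters of Klf2, Klf4, Klf9 and Klf13, against 17.8% of all and 26.7% of those of tested genes. The EGR site GCGNGGGCG, which can overlap a GC box, lay in those of Klf2, Klf3 and Klf4, against 4.70% of all and 8.55% of those of tested genes. Of the other motifs searched on both strands, CCACCC and CCAAT each matched 4 of the 8, CACGTG 3, a loose NF-kB site 2, TGANTCA and CAGACA 1 each, and TGACGTCA, TATAAA and the CArG box none. Their shares among all promoters were 28.1%, 33.8%, 6.02%, 17.6%, 6.75%, 17.1%, 1.55%, 12.4% and 1.47% in that order. A match describes letters in this window and shows no binding.

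Levels were first set side by side per length, as counts per mega (M) of the scaled library size (CPM), divided by kilobases of exon. Klf6 stood far above the rest, at 207 ± 6.32 CPM per kb alone, 237 ± 2.87 at 45 min, 211 ± 6.15 at 90 min and 179.6 ± 1.65 at 180 min (SD, n = 4 each). Its share of the summed level per kb of the 10 genes was 72.4 ± 1.02% alone, 74.7 ± 0.322% at 45 min, 71.7 ± 0.595% at 90 min and 66.7 ± 0.379% at 180 min. Klf13 came next and Klf10 after it in every group, and the libraries of each of these did not overlap with those of the next gene in the order. In macrophages alone Klf13 averaged 32.1 ± 0.753 CPM per kb, Klf10 12.9 ± 1.08 and Klf3 9.16 ± 0.152 (SD, n = 4 each). The length is that of all annotated exons of a gene merged, which can differ from the transcript expressed, and the order depends on it. It is 11243 bases for Klf3 and 4179 for Klf10. In CPM without this division Klf3 was above Klf10 in every group, at 103 against 53.9 in macrophages alone.

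The middle of the order was crowded. In macrophages alone Klf2 at 6.65 ± 0.698 CPM per kb overlapped with Klf7 at 5.96 ± 0.136, and Klf16 at 4.51 ± 0.590 overlapped with Klf4 at 4.39 ± 0.511 (SD, n = 4 each). Klf11 followed at 2.48 ± 0.207 CPM per kb and Klf9 was last at 0.655 ± 0.205, and both were apart from their upper neighbour in every group. Klf2 stood at rank 5 alone and at 45 min, rank 8 at 90 min with 3.59 ± 0.405 CPM per kb, and rank 4 at 180 min with 8.67 ± 1.38. Klf3, Klf4, Klf7 and Klf16 also changed rank between groups, Klf4 between ranks 6 and 8 and each of the others by 1 rank. Klf2 overlapped at 90 min with Klf16 above it, and at 180 min with Klf3 below it.

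**Figure D1:**
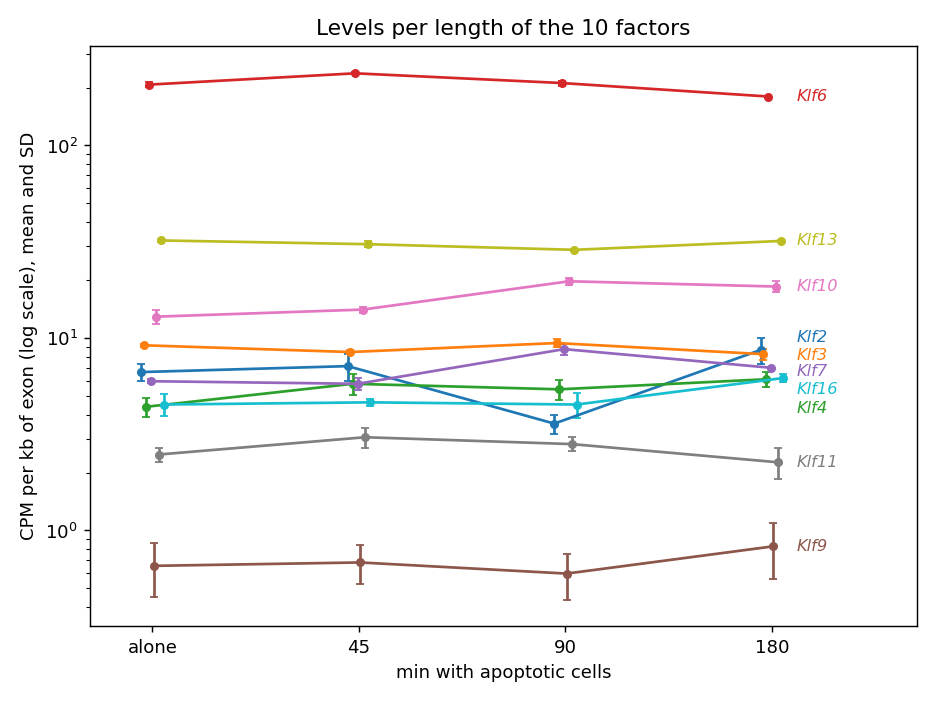
Mean level per length of each factor, in CPM per kb of exon on a log axis, in macrophages alone and after 45, 90 and 180 min with apoptotic cells (points, mean; bars, SD; n = 4 libraries). Klf6 lies above all others in every group, and the Klf2 line dips to 3.59 CPM per kb at 90 min, below Klf4, Klf7 and Klf16.

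Over the 4 groups together, 9 of the 10 members passed the test for any change at an adjusted p under 0.05, against 44.6% of all genes tested (edgeR's quasi-likelihood F test, with Benjamini-Hochberg adjustment over the whole table). Klf9 did not (adjusted p = 0.451). At 45 min 2 members were called, both higher than alone, against 10.8% of all genes in either direction and 4.69% higher. At 90 min 5 members were called against alone, 3 higher and 2 lower, with a background of 21.1% in either direction, 11.1% higher and 9.97% lower. At 180 min 7 were called, 5 higher and 2 lower, with a background of 31.1% in either direction, 15.1% higher and 15.99% lower. The median log2 fold change of the 10 against alone was 0.08 at 45 min, 0.04 at 90 min and 0.28 at 180 min, beside 0.00, 0.00 and 0.01 over all genes tested. The 3 comparisons share the same 4 libraries of macrophages alone.

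Between times, 5 members were called at 90 min against 45 min, 3 higher and 2 lower, where 28.1% of all genes were called, 14.8% higher and 13.3% lower. At 180 min against 90 min 6 were called, 3 in each direction, where 11.4% of all genes were called, 4.45% higher and 6.97% lower. At 180 min against 45 min 5 were called, 3 higher and 2 lower, where 36.4% of all genes were called, 18.3% higher and 18.04% lower.

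**Figure D2:**
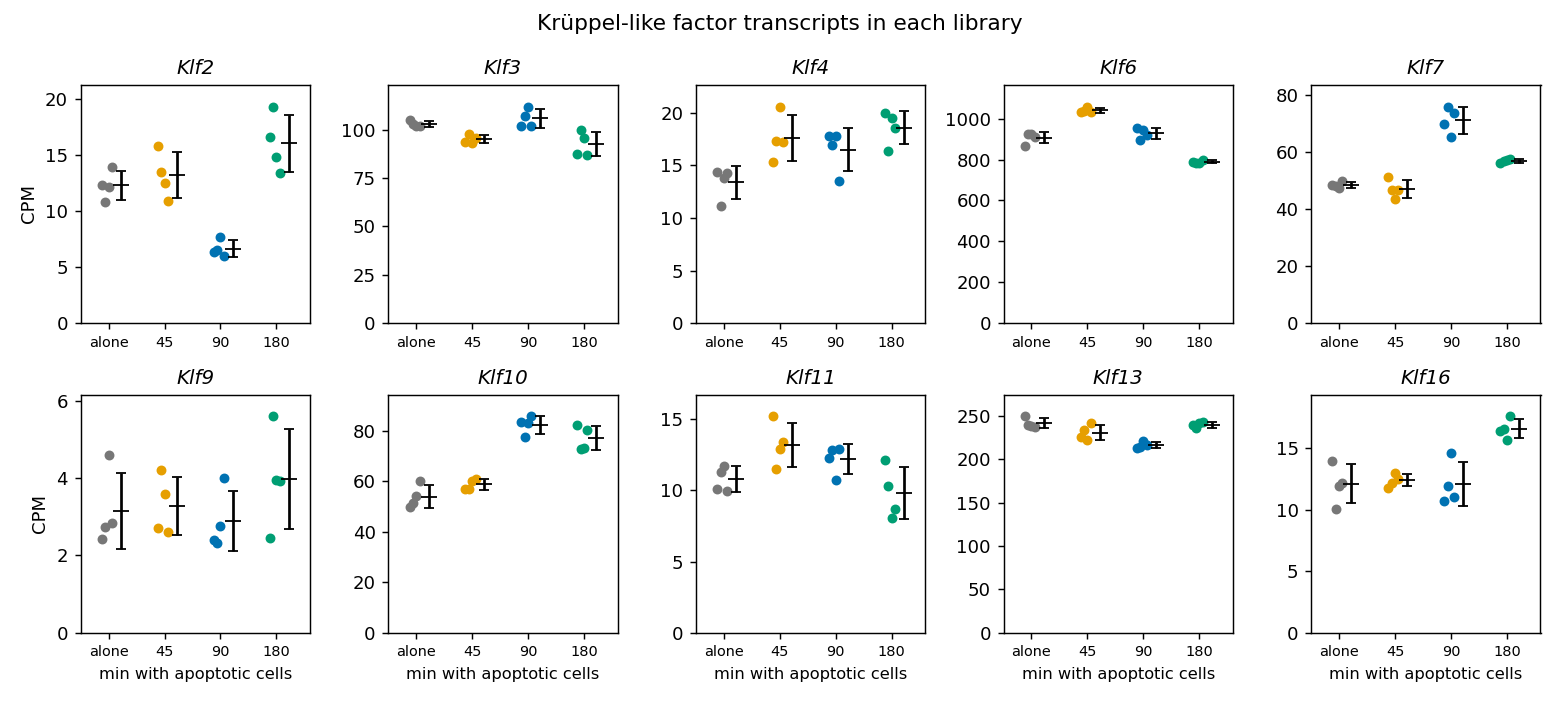
Levels in CPM of the 10 factors in each of the 16 libraries (points), with mean and SD beside them (bars, n = 4), by min with apoptotic cells. The 4 Klf2 libraries at 90 min, from 5.98 to 7.71 CPM, lie below all 12 others, and the 4 Klf7 libraries at 90 min, from 65.4 to 75.99 CPM, lie above all others.

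Klf2 had the widest range of group means in the family, 1.25 on the log2 scale, the 1224th widest of 14168 genes. Its libraries held 12.3, 10.8, 12.1 and 13.9 CPM alone, 15.8, 13.5, 12.5 and 10.9 at 45 min, 6.35, 6.52, 7.71 and 5.98 at 90 min, and 16.6, 19.3, 14.8 and 13.4 at 180 min. All libraries at 90 min were below those of every other group, while those at 45 min overlapped with those alone and those at 180 min overlapped with both. At 90 min Klf2 fell by 0.89 on the log2 scale against alone (SE 0.14, edgeR adjusted p = 6.61e-07) and by 0.99 against 45 min (SE 0.13, edgeR adjusted p = 3.57e-08). It was then higher at 180 min than at 90 min by 1.26 (SE 0.14, edgeR adjusted p = 7.32e-11), a fold of 2.39. Between 45 min and alone the log2 fold change was 0.10, with a 95% interval from -0.14 to 0.35 (edgeR adjusted p = 0.686). At 180 min it was 0.37 above alone (SE 0.12, edgeR adjusted p = 0.0175), a call that was lost under 4 of 24 alternatives. These were leaving out the second library alone (0.32, edgeR adjusted p = 0.0687) or the second at 180 min (0.27, edgeR adjusted p = 0.116), thinned libraries (0.32, edgeR adjusted p = 0.0614) and removal of a trend on exon length and GC content (0.23, edgeR adjusted p = 0.147). The libraries at 90 min held 87 to 112 Klf2 counts, and their precision is limited by these numbers.

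Klf4, a close relative of Klf2, was called higher than alone at each time. It had 14.4, 11.1, 13.8 and 14.3 CPM alone, 15.3, 17.3, 20.6 and 17.2 at 45 min, 17.8, 16.9, 17.8 and 13.5 at 90 min, and 19.97, 16.4, 19.5 and 18.6 at 180 min. All libraries at 45 and 180 min were above all those alone, and 1 library at 90 min lay within the range of those alone. Against alone the log2 fold change was 0.39 at 45 min (SE 0.11, edgeR adjusted p = 0.00885), 0.30 at 90 min (SE 0.11, edgeR adjusted p = 0.0467) and 0.48 at 180 min (SE 0.11, edgeR adjusted p = 0.000361). The call at 90 min was lost under 17 of 24 alternatives, with log2 fold changes from 0.22 to 0.38, and the call at 180 min under none of them. The call at 45 min was lost under 3 of 24 alternatives, with edgeR adjusted p up to 0.112. These were thinned libraries, leaving out the second library alone (0.33, edgeR adjusted p = 0.0615) and leaving out the third library at 45 min (0.33, edgeR adjusted p = 0.0554). No pair of times passed the test for Klf4, with log2 fold changes of -0.09 at 90 min against 45 min (95% interval from -0.31 to 0.12) and 0.18 at 180 min against 90 min (95% interval from -0.04 to 0.41).

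Within each library, the level of Klf4 per kb was divided by that of Klf2. This ratio averaged 1.51 ± 0.155 at 90 min and 0.721 ± 0.146 at 180 min, against 0.661 ± 0.0469 alone (SD, n = 4 each), and at 45 min it ran from 0.586 to 1. It lay between 1.37 and 1.70 in the libraries at 90 min and between 0.513 and 1 in the 12 others. The ratio is built from values tested above, and no test was added.

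**Figure D3:**
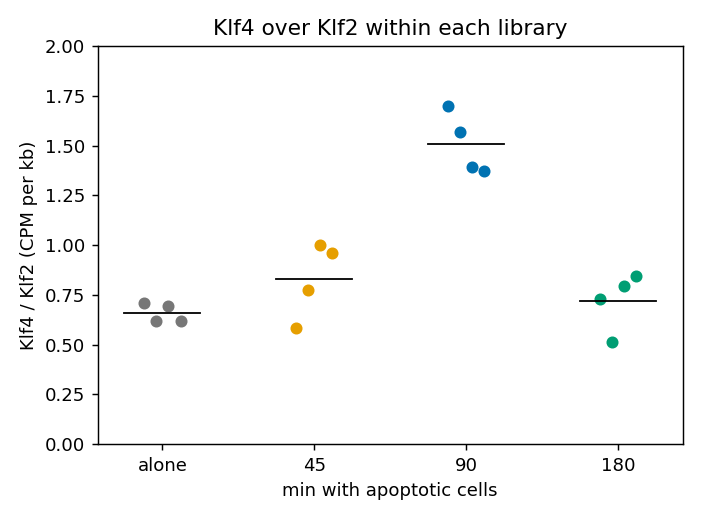
Klf4 over Klf2, each in CPM per kb of exon, in each library (points; line, mean of 4), by min with apoptotic cells. The libraries at 90 min lie at 1.37 or above, and all others at 1 or below.

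Klf6, the most abundant member, was highest at 45 min and lowest at 180 min. It had 867, 924, 926 and 912 CPM alone, 1032, 1035, 1059 and 1033 at 45 min, 956, 895, 943 and 919.9 at 90 min, and 789, 784, 783 and 799 at 180 min. All libraries at 45 min were above, and all at 180 min below, those of every other group, while those at 90 min overlapped with those alone. Against alone Klf6 rose by 0.20 at 45 min (log2, SE 0.037, edgeR adjusted p = 9.83e-05) and fell by 0.20 at 180 min (SE 0.037, edgeR adjusted p = 1.17e-05). At 90 min the log2 fold change against alone was 0.03, with a 95% interval from -0.04 to 0.11. From one time to the next Klf6 fell by 0.16 at 90 min against 45 min (edgeR adjusted p = 0.000455) and by 0.23 at 180 min against 90 min (edgeR adjusted p = 1.69e-06). The changes are small on a log scale, and the counts behind them ran from 8538 to 42683 per library. With a trend on exon length and GC content taken out of each library, the values were 0.31 at 45 min against alone and -0.35 at 90 min against 45 min.

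Klf7, known mainly for its role in neuronal development, was highest at 90 min. It had 48.3, 48.2, 47.3 and 50 CPM alone, 51.1, 46.6, 43.5 and 46.8 at 45 min, 69.7, 75.99, 65.4 and 73.7 at 90 min, and 56.2, 56.8, 57.2 and 57.6 at 180 min. The libraries at 90 min and those at 180 min each stood apart from all other groups, and those at 45 min overlapped with those alone. Klf7 was 0.56 higher at 90 min than alone on the log2 scale (SE 0.063, edgeR adjusted p = 2.61e-10), a fold of 1.47, and 0.60 higher than at 45 min (SE 0.062, edgeR adjusted p = 2.37e-11). At 180 min it was lower than at 90 min by a log2 fold change of -0.32 (SE 0.064, edgeR adjusted p = 0.000118) and still 0.23 above alone (SE 0.063, edgeR adjusted p = 0.00281).

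Among the activators, Klf2 was thus at its lowest level at the time when Klf7 was at its highest. The direct contrasts between 90 and 180 min had opposite signs, 1.26 for Klf2 and -0.32 for Klf7, and both passed the test under all 24 alternatives.

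Klf3, the CtBP-binding repressor of the list, changed little. It had 105, 103, 102 and 102 CPM alone, 93.5, 97.6, 93.2 and 95.7 at 45 min, 102, 107, 112 and 102 at 90 min, and 87.6, 100.1, 95.9 and 87.0 at 180 min. All libraries at 45 and 180 min lay below all those alone and at 90 min, while those alone and at 90 min overlapped. Klf3 was lower at 180 min than alone by a log2 fold change of -0.16 (SE 0.053, edgeR adjusted p = 0.0194) and lower than at 90 min by -0.19 (SE 0.054, edgeR adjusted p = 0.00931). At 45 min the log2 fold change against alone was -0.12, which did not pass the test (edgeR adjusted p = 0.159), and at 90 min against 45 min it was 0.15 (SE 0.053, edgeR adjusted p = 0.0220). The last of these calls was lost under 9 of 24 alternatives, at 0.03 with the length and GC trend removed. The call at 180 min against alone was lost under 4 of 24 alternatives, with adjusted p up to 0.129 in edgeR or DESeq2. Among these were leaving out the second library alone, the first at 180 min or the fourth at 180 min. The call at 180 min against 90 min was lost without the third library at 90 min, the first at 180 min or the fourth at 180 min. Over all 24 alternatives these log2 fold changes ranged from -0.20 to -0.12 against alone and from -0.22 to -0.15 against 90 min.

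Of the Sin3-binding members, Klf10 changed most. KLF10 was first described as an early gene induced by TGF-beta, a cytokine that macrophages release when they take up apoptotic cells. Klf10 had 49.9, 51.4, 54.1 and 60.1 CPM alone, 56.9, 57.01, 60.1 and 60.7 at 45 min, 83.6, 77.3, 82.97 and 85.7 at 90 min, and 82.1, 72.7, 73.3 and 80.4 at 180 min. All libraries at 90 and 180 min were above all those alone and at 45 min, and those at 90 and 180 min overlapped with each other. Klf10 was 0.61 higher at 90 min than alone on the log2 scale (SE 0.062, edgeR adjusted p = 6.38e-12), a fold of 1.53, and 0.49 higher than at 45 min (SE 0.061, edgeR adjusted p = 4.52e-09). At 180 min it was 0.52 above alone (SE 0.062, edgeR adjusted p = 3.34e-10), and the log2 fold change against 90 min was -0.09 with a 95% interval from -0.22 to 0.03. At 45 min it was 0.13 against alone with a 95% interval from 0.00 to 0.25, which did not pass the test (edgeR adjusted p = 0.202).

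Klf11, a close relative of Klf10 that TGF-beta is also known to induce, was called in no comparison with alone. It averaged 10.8 ± 0.897 CPM alone, 13.2 ± 1.54 at 45 min, 12.2 ± 1.03 at 90 min and 9.79 ± 1.82 at 180 min (SD, n = 4 each). Its log2 fold changes against alone were 0.30, 0.18 and -0.16 in order of time (edgeR adjusted p = 0.110, 0.352 and 0.383). It was lower at 180 min than at 45 min by -0.45 (SE 0.13, edgeR adjusted p = 0.00284), although the libraries, from 8.03 to 12.1 CPM at 180 min and from 11.5 to 15.2 CPM at 45 min, overlapped.

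Klf13, a factor that was described as an activator of the chemokine gene Ccl5 in T cells, ranged by 0.16 on the log2 scale over the groups, the narrowest range of the family. It averaged 242 ± 5.67 CPM alone, 231 ± 8.45 at 45 min, 217 ± 3.27 at 90 min and 240.1 ± 3.17 at 180 min (SD, n = 4 each). All libraries at 90 min, from 213 to 221 CPM, lay below those of every other group. Klf13 fell by 0.16 at 90 min against alone (log2, SE 0.043, edgeR adjusted p = 0.00506) and was 0.15 higher at 180 min than at 90 min (SE 0.044, edgeR adjusted p = 0.0142). With the length and GC trend removed the second of these was 0.11 and no longer passed the test (edgeR adjusted p = 0.0861).

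Klf16, a little-studied member related to Klf9 and Klf13, was higher at 180 min only among the times tested against alone. It had 13.99, 10.1, 11.9 and 12.2 CPM alone, 11.8, 12.2, 12.99 and 12.5 at 45 min, 10.7, 11.9, 14.6 and 11.03 at 90 min, and 16.4, 16.6, 15.7 and 17.6 at 180 min. The libraries at 180 min were above all others, and the other 3 groups overlapped with one another. At 180 min Klf16 was 0.46 higher than alone on the log2 scale (SE 0.11, edgeR adjusted p = 0.00116), 0.46 higher than at 90 min (SE 0.12, edgeR adjusted p = 0.00399) and 0.42 higher than at 45 min (SE 0.11, edgeR adjusted p = 0.00211).

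Klf9, a gene that glucocorticoids and thyroid hormone are known to induce, was the scarcest member, with 33 to 124 counts per library. It averaged 3.15 ± 0.987 CPM alone, 3.28 ± 0.761 at 45 min, 2.88 ± 0.776 at 90 min and 3.98 ± 1.29 at 180 min (SD, n = 4 each). All groups overlapped, with a coefficient of variation from 23.2% to 32.3% within groups, and no comparison passed the test. The 95% interval at 180 min against alone ran from -0.17 to 0.81 on the log2 scale.

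**Figure D4:**
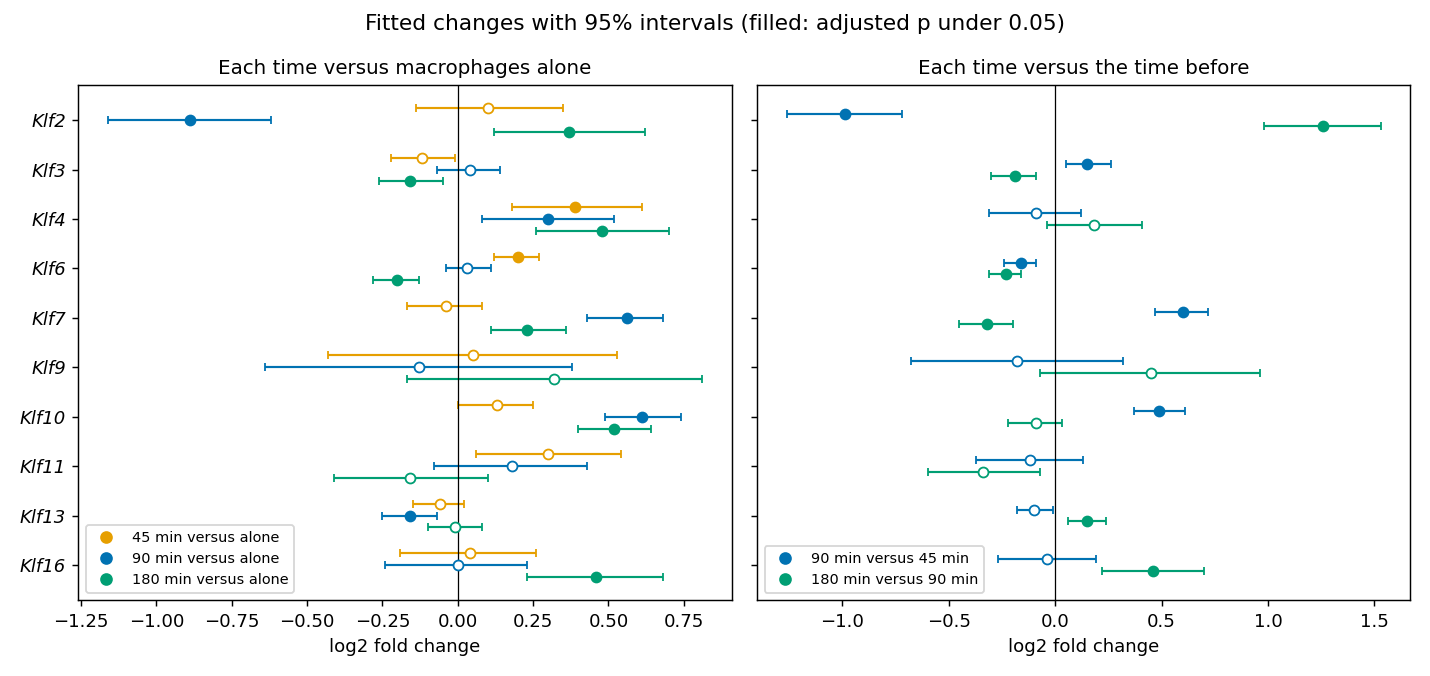
Log2 fold changes of the 10 factors with 95% intervals (bars) from the edgeR fit, for each time against macrophages alone (left) and against the time before (right), 4 libraries per group. Filled points passed an adjusted p under 0.05, among them Klf2 at -0.89 at 90 min against alone and at 1.26 at 180 min against 90 min.

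The groups did not overlap for 3 members at 45 min against alone, for 4 at 90 min and for 6 at 180 min, where 16.9%, 21.2% and 28.6% of all genes tested did so. Between times this held for 6 members at 90 min against 45 min, for 6 at 180 min against 90 min and for 4 at 180 min against 45 min, where 25.1%, 12.3% and 32.3% of all genes did so. Of the 30 calls made for a member in a comparison, 23 passed under all 24 alternatives. The members differ in base composition, from 42.4% GC in Klf6 to 61.6% in Klf2, and the median log2 fold change of all genes at 45 min against alone ran from -0.14 below 40% GC to 0.10 at 60% or more. At 90 min against alone the same bands stood at 0.06 and 0.02. The trend was wider and reversed at 90 min against 45 min, at 0.24 and -0.08, and at 180 min against 45 min, at 0.23 and -0.04. With the length and GC trend removed, Klf2 was at -0.98 at 90 min against alone (edgeR adjusted p = 8.46e-08).

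Macrophage identity and material from the dead cells were read from markers. All 11 macrophage markers had counts in every group, but Cd163 had only 8 to 29 per group and did not pass the filter. Their summed levels ran from 11224 to 11537 CPM alone, 12189.8 to 13219 at 45 min, 11092 to 11398 at 90 min and 10322 to 11632 at 180 min. Lyz2 was a large part of this sum, at 5133 of 11361 CPM on average in macrophages alone. Most macrophage markers were also called in some comparison. Of the 10 tested, 4 were called at 45 min against alone, all higher, beside 10.8% of all genes in either direction and 4.69% higher. Against alone 7 were called at 90 min and 7 at 180 min, 2 higher and 5 lower each time. All genes were called at 21.1% and 31.1% there. At 90 min against 45 min 9 were called, 8 of them lower, beside 28.1% of all genes in either direction and 13.3% lower. Cd68, a lysosomal protein gene, was at -0.21 at 90 min and -0.26 at 180 min against alone (edgeR adjusted p = 0.000274 and 3.69e-06), and Mertk, a receptor gene for apoptotic cells, at -0.29 and -0.25 (edgeR adjusted p = 2.49e-05 and 0.000147). Msr1, a scavenger receptor gene, was 0.19 higher at both times (edgeR adjusted p = 0.000174 and 7.70e-05). The part of these shifts in the results on Klf genes was not tested. Of 15 T cell or Jurkat markers, 8 had a count alone, 7 at 45 min, 8 at 90 min and 9 at 180 min, and Cd3e, Cd3g, Cd2, Cd7 and Bcl11b were at 0 in every group. Their summed level was 15.5 to 20.9 CPM alone, 14.4 to 16 at 45 min, 16.7 to 21.4 at 90 min and 17.4 to 23.5 at 180 min. Most of it was Cd28 and Tal1, and the 4 markers that passed the filter went both ways. Cd28 was lower at 90 min than alone (-0.37, edgeR adjusted p = 0.0282). Tal1 was higher by 0.85 at 90 min and 0.76 at 180 min (edgeR adjusted p = 0.000415 and 0.000912), and Cd5 by 1.96 at 180 min (edgeR adjusted p = 0.00738), while Lat was called at no time. Human reads that resemble mouse Klf genes could be among the counts, as could reads shared between family members through the conserved zinc finger sequence, and the part of either in these results was not tested. In bulk RNA, a smaller share of cells that express a gene and less RNA per cell cannot be told apart. Library totals ran from 10.7 to 41.7 M counts, and all libraries at 90 min, from 13.6 to 17.4 M, were shallower than all at 45 min, from 24.4 to 41.7 M.

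The rest of the family was scarce. Of 7 other Klf genes with an entry in the table, only Klf8, a CtBP-binding relative of Klf3, passed the filter, at 0.531 ± 0.227 CPM at 180 min and 0.816 ± 0.229 alone (SD, n = 4 each), and it was called in no comparison. Klf1, the erythroid founding member of the family, had 37 counts over 12 libraries, Klf5 had 7 and Klf15 had 1. Klf12, Klf14 and Klf17 had no count in any library, which allows up to 0.00836 CPM over the 16 libraries together. Of 9 genes of the related Sp factors, 4 passed the filter. Sp1, the ubiquitous GC box factor, averaged 162 ± 6.36 CPM at 45 min, 162 ± 10.1 at 90 min and 161 ± 8.16 at 180 min, against 182 ± 4.51 alone (SD, n = 4 each). All its libraries with apoptotic cells lay below those alone, with log2 fold changes of -0.17, -0.17 and -0.18 (edgeR adjusted p = 0.0127, 0.00926 and 0.00328). The first of these was lost under 5 of 24 alternatives. Sp3 was called in no comparison and Sp4 was lower at 180 min than alone by -0.39 (edgeR adjusted p = 0.00835), while Sp2 was called only at 180 min against 45 min (-0.25, edgeR adjusted p = 0.0429). The Sp2 libraries overlapped in that comparison, and the call was lost under 8 of 24 alternatives. Sp5 and Sp9 had no count, and Sp6, Sp7 and Sp8 had 19, 6 and 3 counts in all.

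Transcripts for partner proteins of the KLFs were lower than alone where they changed. Of 11 cofactor genes, 2 were called at 45 min, 3 at 90 min and 6 at 180 min against alone, all lower, beside 6.11%, 9.97% and 15.99% of all genes, and their median log2 fold change was 0.02, -0.05 and -0.27. Ep300, which encodes the acetyltransferase p300, averaged 323 ± 12.3 CPM at 45 min, 311 ± 17.3 at 90 min and 274 ± 16.8 at 180 min, against 406 ± 7.63 alone (SD, n = 4 each). Its log2 fold changes were -0.33, -0.39 and -0.57, and no library with apoptotic cells reached the range of those alone (edgeR adjusted p = 1.67e-07, 8.63e-10 and 4.52e-16). Crebbp, which encodes its paralog CBP, was lower by -0.29, -0.30 and -0.30 at the same times (edgeR adjusted p = 2.05e-06, 7.93e-07 and 1.70e-07). Kat2b, another acetyltransferase gene, and Sap30, a subunit of the Sin3 complex, were lower at 180 min by -0.47 (edgeR adjusted p = 1.47e-08) and -0.58 (edgeR adjusted p = 1.07e-06). Of 3 genes for ubiquitin ligases known to target KLFs, Wwp1 was lower at 45 min by -0.17 (edgeR adjusted p = 0.0173), and Fbxw7 and Smurf1 were called at no time. With the length and GC trend removed the value for Wwp1 was 0.05, so its direction depended on that choice.

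The kinase cascade from MEKK3 through MEK5 and ERK5 to MEF2 is known to switch on Klf2 and Klf4 in endothelial cells, and FOXO1 promotes Klf2 in T cells. Of 12 genes of this route and its class IIa deacetylases, 2 were called at 45 min, 1 higher and 1 lower, 3 at 90 min, all lower, and 8 at 180 min, 3 higher and 5 lower, against alone, beside 10.8%, 21.1% and 31.1% of all genes. Their median log2 fold change was -0.07, -0.12 and -0.13. Map3k3, the gene for MEKK3, averaged 150.1 ± 8.29 CPM at 90 min and 129.8 ± 4.15 at 180 min, against 175 ± 7.43 alone (SD, n = 4 each), with log2 fold changes of -0.23 (edgeR adjusted p = 0.000328) and -0.43 (edgeR adjusted p = 7.31e-11). Mef2a, a MEF2 factor, was 0.31 higher at 180 min than alone (edgeR adjusted p = 2.32e-07) and not called at 90 min (0.07, edgeR adjusted p = 0.361). Foxo3 was lower than alone by -0.26 at 90 min and -0.28 at 180 min (edgeR adjusted p = 0.000156 and 1.88e-05). Hdac5, a deacetylase that holds MEF2 in check, was 0.18 higher at 45 min than alone (edgeR adjusted p = 0.0195). That value was 0.07 and did not pass the test with the length and GC trend removed. At 90 min against 45 min, where Klf2 fell, 4 of the 12 were called, 1 higher and 3 lower, beside 28.1% of all genes. Mef2a was higher (0.19, edgeR adjusted p = 0.00136), a value of 0.00 with the length and GC trend removed. Map3k3 (-0.22, edgeR adjusted p = 0.000340), Foxo3 (-0.19, edgeR adjusted p = 0.00461) and Hdac5 (-0.29, edgeR adjusted p = 2.32e-05) were lower, and these calls were lost under no alternative.

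Genes reported elsewhere as targets of KLF2 or KLF4 did not move in 1 direction. The list mixes targets of both factors, some activated and some repressed, so its direction cannot measure the activity of either. Of 14, 12 passed the filter, and against alone 1 was called at 45 min, higher, 3 at 90 min, 2 higher and 1 lower, and 6 at 180 min, 2 higher and 4 lower, beside 10.8%, 21.1% and 31.1% of all genes, with median log2 fold changes of 0.05, -0.09 and -0.26. S1pr1, a lipid receptor gene that KLF2 activates in T cells, averaged 102 ± 2.24 CPM at 180 min, against 80.3 ± 3.45 alone (SD, n = 4 each), a log2 fold change of 0.34 (edgeR adjusted p = 1.17e-06). At 90 min, when Klf2 was lowest, S1pr1 stood at 76.8 ± 5.04 CPM and was not called (-0.06, edgeR adjusted p = 0.482). From 90 to 180 min, where Klf2 rose by 1.26, S1pr1 rose by 0.40 (edgeR adjusted p = 1.17e-07). In that comparison 4 of the 12 were called, 1 higher and 3 lower, beside 11.4% of all genes. Cdkn1a, which encodes the cell cycle inhibitor p21 and is a target of KLF4, was lower by -0.25 at 90 min and -0.15 at 180 min (edgeR adjusted p = 2.35e-05 and 0.00748). Cd14, a lipopolysaccharide coreceptor gene, was higher by 0.39, 0.14 and 0.19 at 45, 90 and 180 min (edgeR adjusted p = 1.59e-08, 0.0353 and 0.00200), and the second of these calls was lost under 11 of 24 alternatives. Itgb7, an integrin gene repressed by KLF2 in lymphocytes, was lower at 180 min by -0.38 (edgeR adjusted p = 0.000133).

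TGF-beta pathway genes, listed beside Klf10 and Klf11, were higher where they changed against alone. Of 13, 12 passed the filter, and 1 was called at 45 min, 5 at 90 min and 7 at 180 min, all higher, beside 4.69%, 11.1% and 15.1% of all genes, with median log2 fold changes of -0.01, 0.06 and 0.23. With the length and GC trend removed, 3 of 8 called at 90 min and 2 of 9 called at 180 min were lower. Smad7, the feedback inhibitor of the pathway, averaged 11.7 ± 1.39 CPM at 45 min, 16.8 ± 0.773 at 90 min and 30.7 ± 2.52 at 180 min, against 8.83 ± 0.474 alone (SD, n = 4 each). Its log2 fold changes were 0.41, 0.93 and 1.80 (edgeR adjusted p = 0.00598, 5.63e-10 and 4.17e-22), and it was higher at 180 min than at 90 min by 0.87 (edgeR adjusted p = 5.45e-10), where Klf10 was not. Smad3, a signal transducer, was higher by 0.30 at 90 min and 0.94 at 180 min (edgeR adjusted p = 0.000193 and 1.02e-19). Ski, a corepressor of SMAD proteins, was 0.56 higher at 180 min (edgeR adjusted p = 8.96e-17).

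Glucocorticoid-responsive genes, listed beside Klf9, split. Of 8, 7 passed the filter, and 1 was called higher at 45 min, 2 higher and 2 lower at 90 min, and 2 higher and 1 lower at 180 min against alone, beside 10.8%, 21.1% and 31.1% of all genes, with median log2 fold changes of 0.00, -0.07 and 0.06. Sgk1, a kinase gene, averaged 332 ± 10.5 CPM at 180 min, against 121 ± 9.90 alone (SD, n = 4 each), a log2 fold change of 1.46 (edgeR adjusted p = 1.18e-32). Per1, a circadian clock gene, was 0.53 higher at 45 min and 0.30 higher at 90 min (edgeR adjusted p = 3.60e-09 and 0.000296). Ddit4, a stress-induced inhibitor of mTOR, was at 0.529 ± 0.234 CPM at 90 min, against 2.11 ± 0.590 alone (SD, n = 4 each), a log2 fold change of -2.01 (edgeR adjusted p = 8.14e-05), and was 1.73 higher at 180 min than at 90 min (edgeR adjusted p = 0.00163). Its libraries held only 5 to 81 counts, so the size of these changes is imprecise. Nr3c1, the glucocorticoid receptor gene, was lower at 180 min by -0.22 (edgeR adjusted p = 0.000140).

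**Figure D5:**
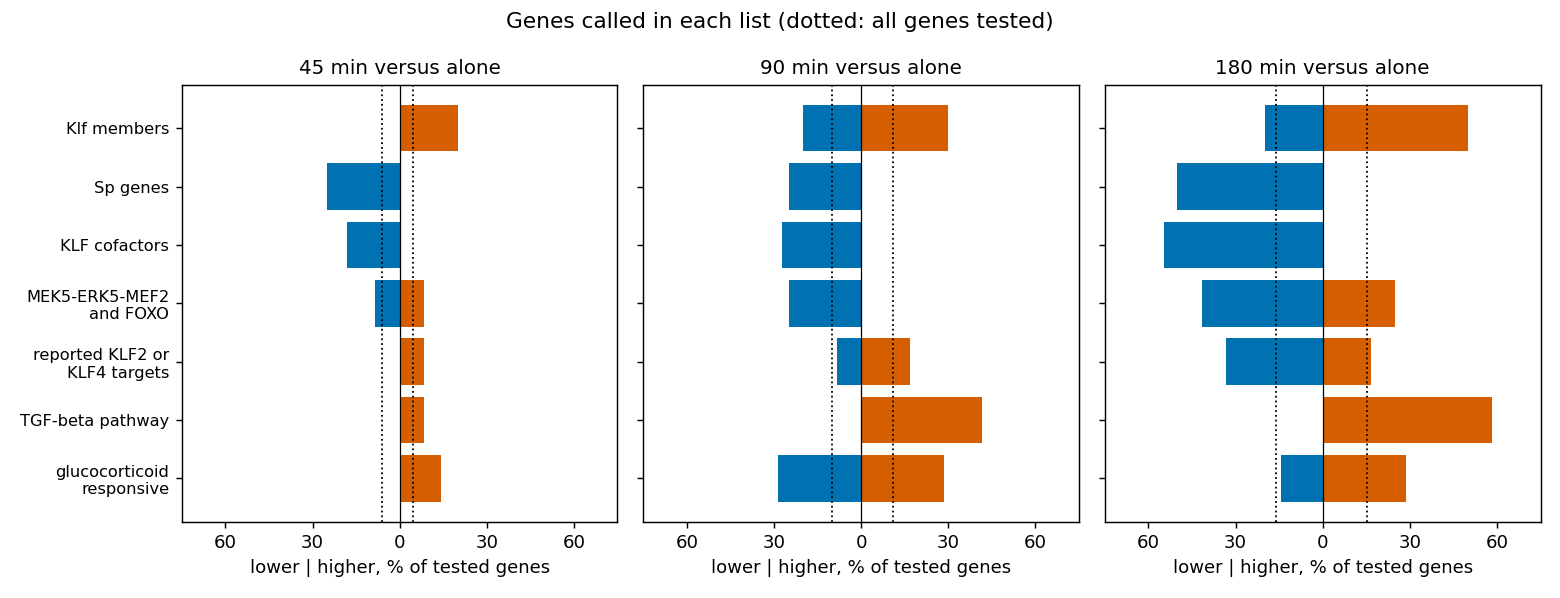
Share of tested genes in each list called higher (right, orange) or lower (left, blue) against macrophages alone at 45, 90 and 180 min, in percent; dotted lines give the shares over all genes tested, such as 15.1% higher and 15.99% lower at 180 min. The lists hold between 4 and 12 tested genes, so 1 gene is a large share of a list.

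Genes with the course nearest to that of each of the 4 widest-ranging members were sought among 9786 genes with a mean log2 CPM of at least 1, by the root mean square difference of centred log2 CPM over the 16 libraries. For Klf2 the nearest were Nuak1 (0.29), Rab40c (0.32) and Nol4l (0.32). Nuak1 averaged 9.97 CPM alone, 10.6 at 45 min, 5.02 at 90 min and 11.5 at 180 min. Courses nearest to the other 3 members were closer, with Emp1 (0.09), Mdm2 (0.10) and Azin1 (0.10) for Klf10, Jmjd1c, Hpgds and Wdfy1 (0.10 each) for Klf7, and Wdr73 (0.13), Pmp22 (0.14) and Tgm2 (0.14) for Klf4. Mdm2 averaged 308 CPM alone, 332 at 45 min, 435 at 90 min and 406 at 180 min. These values describe likeness over libraries that share their depth and groups, and carry no test.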

How the data were processed

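Per the labels' protocols, ribosomal RNA was removed from column-purified total RNA before directional library preparation. The authors deposited raw counts for the 16 libraries in 1 table. The submitters' processing notes name STAR 2.7.9a, SAMtools, HTSeq and the build mm39. The strand setting, the annotation and the handling of shared or human reads are not stated in the sources, so overlapping and antisense genes may share counts. Column names give each library's group without a number, so libraries are numbered in file order. The table had 0 rows without a gene, and 52135 of 55416 IDs had a symbol in GENCODE M21, which is for an earlier build and gave names, exon length and GC content only. Libraries of a group differed by more than sampling noise, and each was treated as its own replicate. This spread does not show whether they come from separate cultures.

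Low counts were removed by edgeR's filter (minimum count 10, minimum total 15), TMM factors scaled the library sizes, and genes were tested with the quasi-likelihood F test of edgeR 4.0.16 (R 4.3.3). All 16 libraries shared 1 fit with group as the only term, p-values were Benjamini-Hochberg adjusted over 14168 genes, and a call needed an adjusted p under 0.05. The self-test on simulated counts used the same code. Alternatives were DESeq2 1.42.0, its size factors in edgeR, no filter, a stricter filter, only the groups compared, thinned libraries, protein-coding genes only, a length and GC offset, and leaving out each library. The members, lists and tests were chosen with earlier results of these data known. Named were all members, all Klf and Sp genes, up to 4 genes per list with the smallest p over all times, and the 3 nearest courses for the 4 widest-ranging members. Of the genes this rule named, 1 is not reported here.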

Additional observations from a re-analysis of the deposited data

Results flagged for a closer look

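Among 40 groups of 4 libraries, 1 held a library that stood apart from the other 3 by Dixon's limit, and chance alone does so in about 1 of 20 groups. This was Klf6 at 45 min, where the third library had 1059 CPM and the others 1032, 1035 and 1033 CPM. Without that library Klf6 was still called higher at 45 min than alone.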

How the results depend on the processing

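The calls of members kept their direction under all 24 alternatives, and 23 of 30 also kept an adjusted p under 0.05 in edgeR or DESeq2. The calls lost under some were Klf4 at 45 and 90 min against alone, Klf2 and Klf3 at 180 min against alone, Klf3 at 90 min against 45 min and at 180 min against 90 min, and Klf13 at 180 min against 90 min. The number of members called at 45 min against alone, 2 as reported, was 1 with thinned libraries, 4 with the length and GC trend removed, and 1 to 3 when each library was left out. It was 1 without the second library alone and without the third at 45 min. With the trend removed, Klf4, Klf6 and Klf10 were higher and Klf13 was lower. The cause was not tested. Klf13 at 90 min against 45 min passed the test under 13 of 24 alternatives and not in the fit reported.

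Small log2 fold changes that had not passed the test changed sign. At 45 min against alone these were Klf3 at 0.01, Klf7 at 0.05 and Klf16 at -0.07 with the length and GC trend removed, and with 1 library left out Klf9 at -0.06 or -0.08 (range over libraries left out -0.08 to 0.32), Klf16 at -0.02 and Klf7 at 0.01. At 90 min against alone they were Klf16 at 0.00 with only the 2 groups compared, 0.11 with thinned libraries, 0.01 with protein-coding genes only and 0.07, 0.03, 0.00 or 0.03 with 1 library left out (range -0.11 to 0.07). They were also Klf9 at 0.02 with thinned libraries and 0.12 without the third library alone (range over libraries left out -0.34 to 0.12), and Klf6 at -0.04 with the trend removed and 0.00 without the first library alone. At 180 min against alone Klf13 was at 0.00 with a stricter filter, 0.04 with thinned libraries, 0.01 with protein-coding genes only and 0.00 without the first library alone. At 90 min against 45 min Klf16 was at 0.03 with thinned libraries. Of the calls reported, 2 in the lists changed sign with the trend removed, Mef2a at 90 min against 45 min, at 0.00, and Wwp1 at 45 min against alone, at 0.05. The causes were not tested.

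No paired analysis was possible because the columns of the count table carry no replicate numbers. Among the 10 members, depth limits Klf9 and Klf2 most, with 33 and 87 counts in their lowest libraries.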
